A study of Mus musculus with 10 samples.

Results

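The genes described here encode the proteasome, its activators and its assembly chaperones. They were taken from the rows of the liver count table whose GENCODE M21 symbol starts with Psm, a letter from a to g and a number. Protein-coding genes with at least 10 counts in at least 5 livers were kept, and Psmb8, Psmb9 and Psmb10, the inducible subunits of the immunoproteasome, were left out by the rule. This gave 46 of the 43629 rows. The thymus-type subunit gene Psmb11 matched the symbol but had 0 counts in every liver, and 4 pseudogenes named after Psmb5, Psmb6 and Psmb7 had at most 2 counts in any liver. The livers came from 10 male KL mice, which carry Lkb1 flox/flox alleles on a background crossed to FVB and were given intranasal Adenovirus CMV-Cre as adults to start lung tumours. All 10 mice were given the virus, and no tumour-free mice are compared here. The CMV promoter is active in many cell types, so Cre could act in any cell the virus entered. The 5 non-cachectic mice (NCACS) had a body weight change of -8 ± 4.64% (SD, n = 5), from -14 to -3%, and the 5 cachectic mice (CACS) of -30.6 ± 1.82% (SD, n = 5), from -33 to -29%. The labels number the mice separately, so p-values measure the spread between these animals.

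The proteasome is the large protease that degrades proteins tagged with chains of ubiquitin. Its cylindrical core particle is built from alpha rings, which gate the entrance, and beta rings, which hold the catalytic sites. The regulatory particle caps the core. Its lid removes ubiquitin chains, and the ATPases of its base unfold the substrate and thread it into the core. In muscle, wasting is accompanied by raised expression of many of these genes, while in liver the same machinery turns over short-lived and damaged proteins. The subunits assemble in fixed stoichiometry, and their genes are known to be induced together, in part through antioxidant response elements bound by the transcription factors NRF1 and NRF2.

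Promoter sequences from RefSeq (GRCm38.p6, the build of the counts) covered 38 of the 46 genes. The antioxidant response element core TGACNNNGC, searched on both strands from 250 bases before to 50 bases after the start, was found in 6 of 38 (15.8%), against 13.99% of 27025 genes with such a window. These 6 were Psmb5, Psmb6, Psmc6, Psmd9, Psmd12 and Psme4. The CCAAT box, a different pattern that can share an end base with that core, was found in 13 of 38 (34.2%), against 41.1% of all genes. A match is a description of the letters only. The stretches upstream of the start are shown for Psmd14 and Psma1, the genes with the smallest p-values below, and for Psmb5, a catalytic subunit gene with a match to the element. Capitals mark CCAAT boxes, which read ATTGG on the other strand, in Psmd14 (chr2:61711444-61711693, forward strand) and Psma1 (chr7:114276119-114276366, reverse strand), and the antioxidant response element core in Psmb5 (chr14:54618023-54618245, reverse strand).
Psmd14: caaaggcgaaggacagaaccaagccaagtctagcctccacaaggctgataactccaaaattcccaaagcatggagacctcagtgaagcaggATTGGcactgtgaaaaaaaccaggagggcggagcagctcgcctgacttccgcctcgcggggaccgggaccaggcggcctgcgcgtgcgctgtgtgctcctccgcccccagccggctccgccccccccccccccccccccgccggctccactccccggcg
Psma1: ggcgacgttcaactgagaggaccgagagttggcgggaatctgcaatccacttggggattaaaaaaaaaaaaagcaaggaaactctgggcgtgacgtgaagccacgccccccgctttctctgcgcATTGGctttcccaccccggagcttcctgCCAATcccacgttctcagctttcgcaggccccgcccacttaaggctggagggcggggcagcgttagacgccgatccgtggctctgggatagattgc
Psmb5: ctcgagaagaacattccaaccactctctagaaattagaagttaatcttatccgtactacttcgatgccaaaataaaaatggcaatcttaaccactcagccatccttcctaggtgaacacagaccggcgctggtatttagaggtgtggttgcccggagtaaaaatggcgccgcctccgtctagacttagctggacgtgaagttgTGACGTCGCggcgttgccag

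Sequencing depth was between 31945328 and 38306888 total counts in NCACS livers and between 31459179 and 40746178 in CACS livers. Hepatocyte markers were high in every liver, and of 6 only Hnf4a was called, higher in CACS livers. Summed leukocyte markers were 8.63 to 22.4 CPM (counts scaled to library size) in NCACS and 5.43 to 12.8 CPM in CACS livers, and summed Kupffer cell markers 95.1 to 142 CPM and 59.3 to 118 CPM. None of the 30 cell type markers was at 0 in every liver, and the 4 lung epithelium markers summed to at most 5.58 CPM. In whole liver RNA, fewer cells of a type and less RNA per cell cannot be told apart. Reads of the mitochondrial genome took 4.38 ± 0.669% of counts in NCACS and 3.57 ± 0.493% in CACS livers (SD, n = 5 each), and the part of these differences in the results below was not tested.

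Proteasome genes were close to equal in cachectic and non-cachectic livers. All 46 passed the filter on low counts and entered the quasi-likelihood test of edgeR, and 0 had a Benjamini-Hochberg adjusted p under 0.05, where 3.8% of the 14143 genes tested did (1.89% higher and 1.92% lower in CACS livers). With DESeq2, 1 gene was called, Psmd14 (lower), against 9.8% of all genes (4.75% higher and 5.05% lower), and limma-voom called 0. At an unadjusted p under 0.05 in edgeR's test there were 5 (10.9%), against 21.6% of all genes. Of the 5, Psmd14, Psma1, Psma8 and Psme2 were lower and Psme3 higher in CACS livers, where 10.3% of all genes were lower and 11.3% higher at that p. The median log2 fold change of CACS over NCACS was -0.09, beside -0.01 for all genes tested. Of the 46 genes, 34 (73.9%) had a negative log2 fold change and 12 a positive one, where 50.6% of all genes were negative. Without NCACS mouse 15 the median was -0.03 and 29 of the 46 were negative.

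The intervals were narrow. For 39 of the 46 genes (84.8%) the 95% confidence interval of the fold change lay within 1.5-fold in either direction, against 48.8% of all genes tested. The exceptions were Psmd14, Psma1, Psma8, Psme2, Psme2b, Psmd10 and Psmc3ip. The median standard error was 0.103 on the log2 scale, beside 0.167 over all genes, and the highest of the 10 livers exceeded the lowest by a median of 1.42-fold, beside 1.90-fold. All genes were not matched to the 46 for level, and the part of level in these differences was not tested. The plot of fold changes by role shows most intervals crossing 0 inside the 1.5-fold lines.

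**Figure D1:**
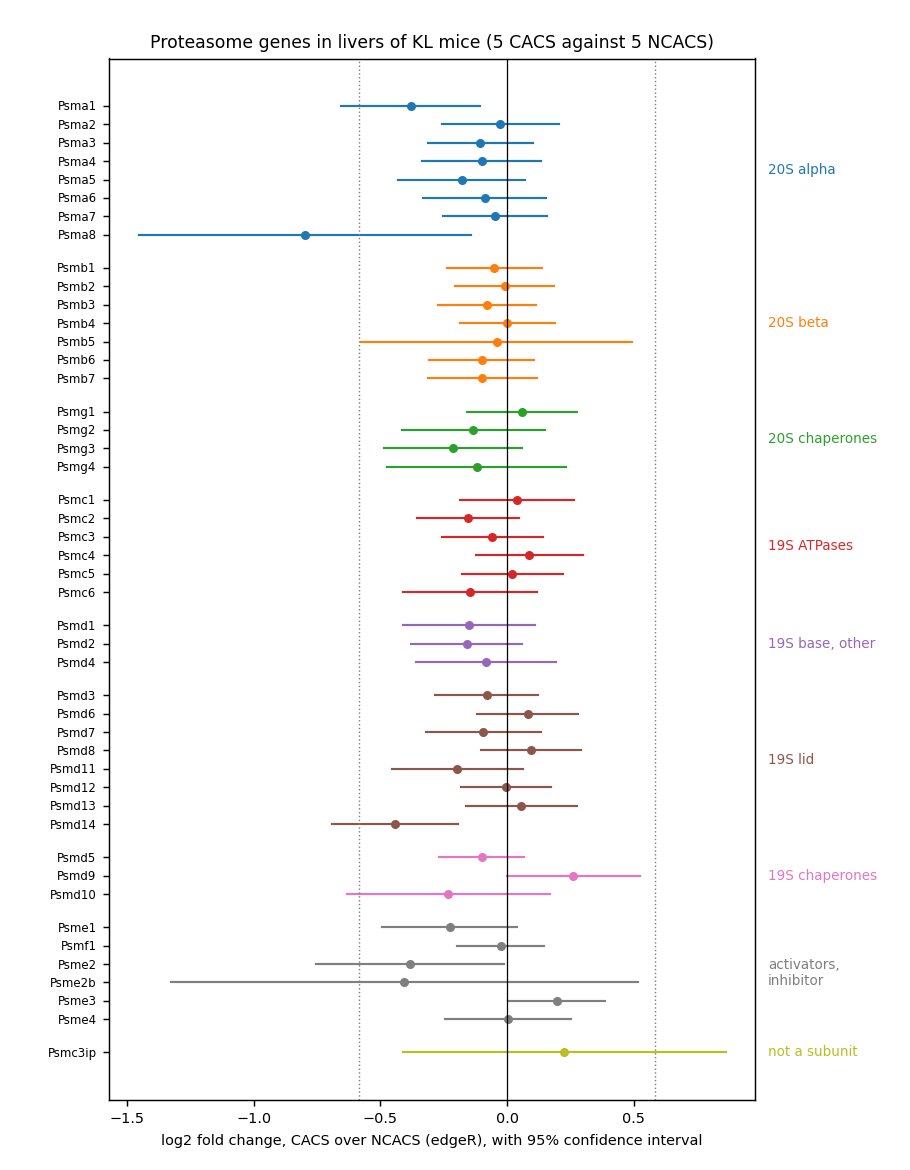
Log2 fold change of CACS over NCACS livers for each of the 46 genes (horizontal axis, edgeR, 5 livers against 5), grouped and coloured by role; points are estimates, bars are 95% confidence intervals and dotted lines mark 1.5-fold. Psmd14 at -0.44 and Psma1 and Psme2, both at -0.38, lie to the left of the other abundant genes, and Psma8 and Psme2b have the widest intervals.

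Among the 8 lid genes, Psmd14 stood out in value. Psmd14 (ENSMUSG00000026914, chromosome 2, 61711694 to 61800376, forward strand) encodes the metalloprotease that cuts ubiquitin chains from substrates as they enter the base. Its TMM-normalized level was 39.1, 35.5, 45.4, 41.5 and 54.9 CPM in NCACS mice 11 to 15 and 32.7, 34.4, 30.3, 29.6 and 32.4 CPM in CACS mice 16 to 20. Every CACS liver was below every NCACS liver, with NCACS mouse 12 nearest to the CACS range and NCACS mouse 15 highest. It was the only 1 of the 46 genes whose groups did not overlap, where 7.07% of all genes did not (3.13% lower and 3.95% higher in CACS livers). The means were 43.3 ± 7.43 and 31.9 ± 1.95 CPM (SD, n = 5 each). With edgeR, the log2 fold change was -0.44 ± 0.114 (SE), with an adjusted p of 0.0551, which misses the threshold, and the 95% confidence interval of the fold change was 0.619 to 0.875. The adjusted p was 0.0106 with DESeq2, 0.0467 with upper-quartile factors and 0.0485 in edgeR's test without NCACS mouse 12, and it ranged from 0.0106 to 0.115 over all alternatives. Without NCACS mouse 15 the log2 fold change was -0.34.

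The other lid genes had log2 fold changes between -0.20 (Psmd11) and 0.09 (Psmd8), and 3 of the 8 were positive. Psmd8, a lid subunit needed for the lid to join the base, had 122 ± 10.42 CPM in NCACS livers against 130 ± 10.03 CPM in CACS (SD, n = 5 each). The log2 fold changes of Psmd3 and Psmd7 were -0.08 and -0.09 and that of Psmd6 was 0.08, all with fold intervals within 1.5-fold. Psmd12 and Psmd13, structural lid subunits, had log2 fold changes of -0.01 and 0.06, and the sign of each depended on the livers included. Exons of Psmd13 share 342 bases with Sirt3 on the opposite strand, and the strand setting of the counting was not given.

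The 6 ATPase genes of the base, whose products form the ring that unfolds substrates, ranged from -0.15 (Psmc2) to 0.09 (Psmc4) on the log2 scale, with 3 negative and 3 positive values and a median of -0.02. Psmc2 had 89.9 ± 11.1 CPM in NCACS livers against 80.8 ± 1.79 CPM in CACS (SD, n = 5 each). Psmc4 had 82.7 ± 11.1 and 87.9 ± 2.60 CPM. Psmc6 also had a log2 fold change of -0.15, with a fold interval of 0.753 to 1.08. The values of Psmc1 (0.04), Psmc3 (-0.06) and Psmc5 (0.02) changed sign under at least 1 alternative. For all 6 the interval of the fold change stayed within 1.5-fold, and for Psmc4 it was 0.918 to 1.23. The scaffold genes of the base, Psmd1 and Psmd2, had log2 fold changes of -0.15 and -0.16, and Psmd4, the ubiquitin receptor, of -0.08. Without NCACS mouse 15, Psmd2 was at -0.095 and Psmd4 at -0.0013. Psmd2 had the highest CPM of the regulatory particle, 188 ± 23.0 in NCACS and 168 ± 8.75 in CACS livers (SD, n = 5 each).

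All 8 alpha ring genes had negative log2 fold changes, from -0.80 (Psma8) to -0.03 (Psma2), with a median of -0.10. Of all genes tested, 50.6% were negative, and of the 7 beta ring genes 6 were. None of the 8 was called by edgeR, which called 3.8% of all genes. Psma2 was at 0.063 without NCACS mouse 15 and at 0.014 without CACS mouse 16. With libraries scaled to the summed counts of the subunits, Psma2 was at 0.047 and Psma7 at 0.027. Psma1 (ENSMUSG00000030751, chromosome 7, 114264606 to 114276118, reverse strand) encodes a ring subunit present in every core particle. Its level was 86.2, 75.4, 97.02, 88.3 and 121 CPM in NCACS mice 11 to 15 and 68.7, 83.7, 73.2, 64.1 and 69.6 CPM in CACS mice 16 to 20. The groups overlapped through NCACS mouse 12 and CACS mouse 17, and NCACS mouse 15 was again highest. The edgeR estimate was -0.38 ± 0.126 (SE) on the log2 scale, with an adjusted p of 0.111, and it was -0.27 without NCACS mouse 15. The log2 fold change was -0.18 for Psma5, -0.11 for Psma3, -0.10 for Psma4, -0.09 for Psma6 and -0.05 for Psma7. Psma8, a variant alpha subunit known from testis, had only 9 to 33 counts per liver. Its levels were 0.979, 0.473, 0.453, 0.512 and 0.679 CPM in NCACS mice and 0.500, 0.341, 0.326, 0.254 and 0.344 CPM in CACS mice. The groups overlapped because CACS mouse 16 exceeded NCACS mice 12 and 13. The edgeR log2 fold change of -0.80 ± 0.300 (SE), with an adjusted p of 0.150, rests on few counts and was -0.57 without NCACS mouse 11.

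The catalytic beta subunit genes were nearly equal between groups. Psmb6, which carries the caspase-like site, had 132, 122, 147, 108 and 130 CPM in NCACS and 109, 127, 122, 118 and 120.2 CPM in CACS livers. In edgeR's test its log2 fold change was -0.10 ± 0.0949 (SE), with an adjusted p of 0.582 and a fold interval of 0.808 to 1.08. The CACS range lay inside the NCACS range. Psmb7, which carries the trypsin-like site, had 116, 105, 115, 115 and 139 CPM in NCACS and 102, 123, 118, 104 and 104 CPM in CACS livers. Its log2 fold change was -0.10 with a fold interval of 0.806 to 1.08, and its exons share 405 bases with Nek6 on the opposite strand. Psmb6 was at -0.045 without NCACS mouse 13 and at -0.15 without NCACS mouse 14, and Psmb7 at -0.028 without NCACS mouse 15. The other beta genes, Psmb1 to Psmb4, lay between -0.08 and 0.00, and Psmb4 had 127 ± 11.2 and 127 ± 5.94 CPM (SD, n = 5 each).

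Psmb5, which carries the chymotrypsin-like site, was the least even of the abundant core genes. It is encoded by ENSMUSG00000022193 (chromosome 14, 54614119 to 54618022, reverse strand). Its level was 38.1, 17.9, 32.8, 28.4 and 38.7 CPM in NCACS mice 11 to 15 and 29.2, 35.9, 30.2, 39.6 and 16.3 CPM in CACS mice 16 to 20. NCACS mouse 12 and CACS mouse 20 were low, 1 in each group, and the other 8 livers overlapped fully. This gave an edgeR log2 fold change of -0.04 ± 0.245 (SE) at an adjusted p of 0.944, the fold interval of 0.670 to 1.41 was the widest among the beta genes, and leaving out CACS mouse 20 moved the value to 0.12 and leaving out NCACS mouse 12 to -0.19. The plots of selected genes show these livers beside the even levels of Psmb6 and Psmb7.

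**Figure D2:**
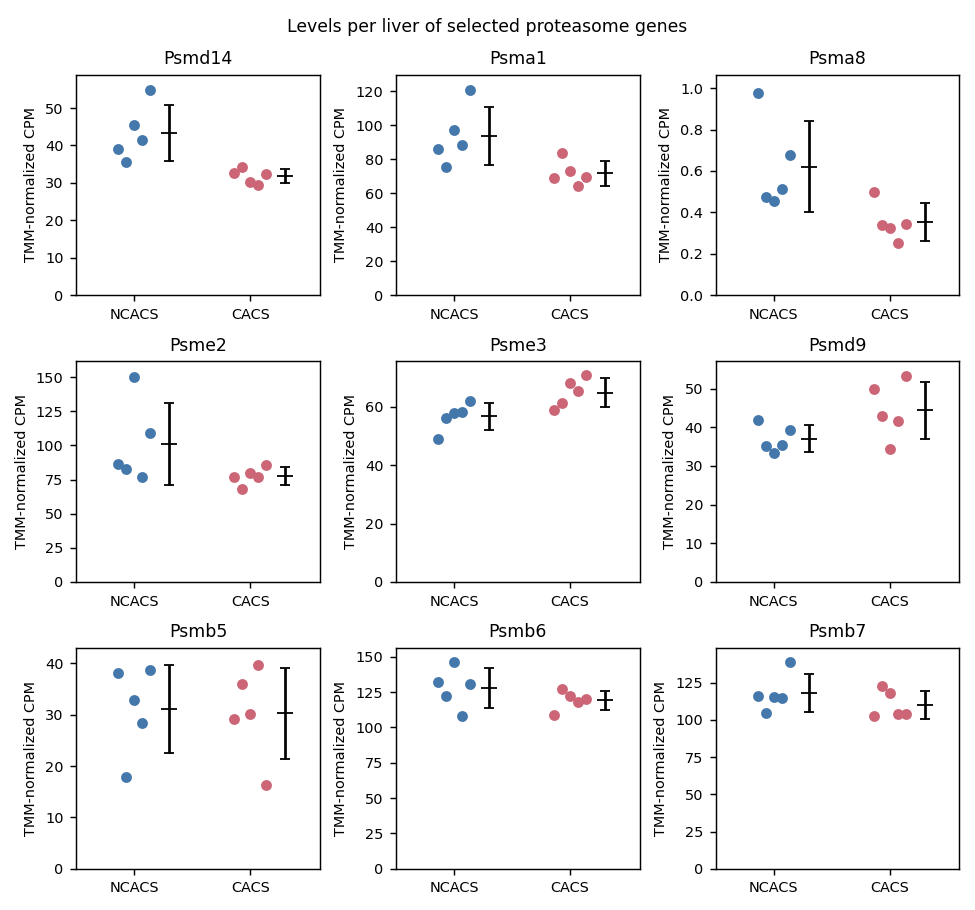
TMM-normalized CPM per liver (vertical axes from 0) of the 6 genes with the smallest unadjusted p and of the 3 catalytic core genes, for 5 NCACS and 5 CACS livers in order of mouse number; the line with bars is the mean ± SD. Psmd14 is the only panel without overlap, and Psmb5 has 1 low liver in each group (17.9 and 16.3 CPM).

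Summed over the particle, transcripts of the core and of the regulatory particle kept nearly the same balance. The 14 constitutive core genes summed to 1267, 1132, 1346, 1232 and 1482 CPM in NCACS and 1176, 1338, 1199, 1174 and 1186 CPM in CACS livers. The ratio of the means was 0.940, and 0.976 without NCACS mouse 15. The 17 regulatory particle genes summed to 1534 ± 176 CPM in NCACS livers against 1468 ± 52.1 CPM in CACS (SD, n = 5 each), a ratio of 0.957, and 0.999 without NCACS mouse 15. The groups overlapped in both sums. Regulatory over core was 1.19 ± 0.0333 and 1.21 ± 0.0313, a difference smaller than 1 SD. All 46 genes together took 0.334 ± 0.0288% of the counts in NCACS and 0.321 ± 0.0227% in CACS livers (SD, n = 5 each).

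Within the particles, the shares of some subunits separated the groups. Each gene was taken as a percent of the summed CPM of its own particle in the same liver, a scale chosen after the data had been seen. The subunits make up this sum and other genes do not, so the percents over all genes given below are not a like baseline. Within a particle the shares have a fixed total, so lower shares of some genes go with higher shares of others. In the core, Psma1 alone of 14 genes had groups that did not overlap, at 7.20 ± 0.583% in NCACS and 5.91 ± 0.303% in CACS livers (SD, n = 5 each). Relative to the summed core, 5.59% of all genes tested did not overlap, 1.66% lower and 3.92% higher in CACS livers. In the regulatory particle 5 of 17 genes (29.4%) did not overlap, 3 lower and 2 higher in CACS livers, where 5.09% of all genes did not (1.94% lower and 3.15% higher). Psmd14 was 2.63, 2.60, 2.79, 2.97 and 3.07% in NCACS and 2.22, 2.21, 2.09, 2.06 and 2.27% in CACS livers. Every CACS share lay below every NCACS share.

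Psmd2 took 12.3 ± 0.346% of the regulatory sum in NCACS and 11.5 ± 0.342% in CACS livers, and Psmc2 took 5.86 ± 0.115% and 5.51 ± 0.182% (SD, n = 5 each). Psmd13 was higher in CACS livers, 4.43 ± 0.217% against 4.82 ± 0.188%, as was Psmd8, 7.97 ± 0.476% against 8.85 ± 0.443% (SD, n = 5 each). For these 4 genes the gaps between groups were narrow, and their edgeR log2 fold changes on the scale of all genes were not called. When libraries were scaled to the summed counts of the core and regulatory subunits in place of TMM, 0 of the 46 genes were called. The median of all genes moved to 0.06 and that of the 46 genes to -0.01, 26 of the 46 were negative, and Psmd14 was at -0.36 at an adjusted edgeR p of 0.0614.

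**Figure D3:**
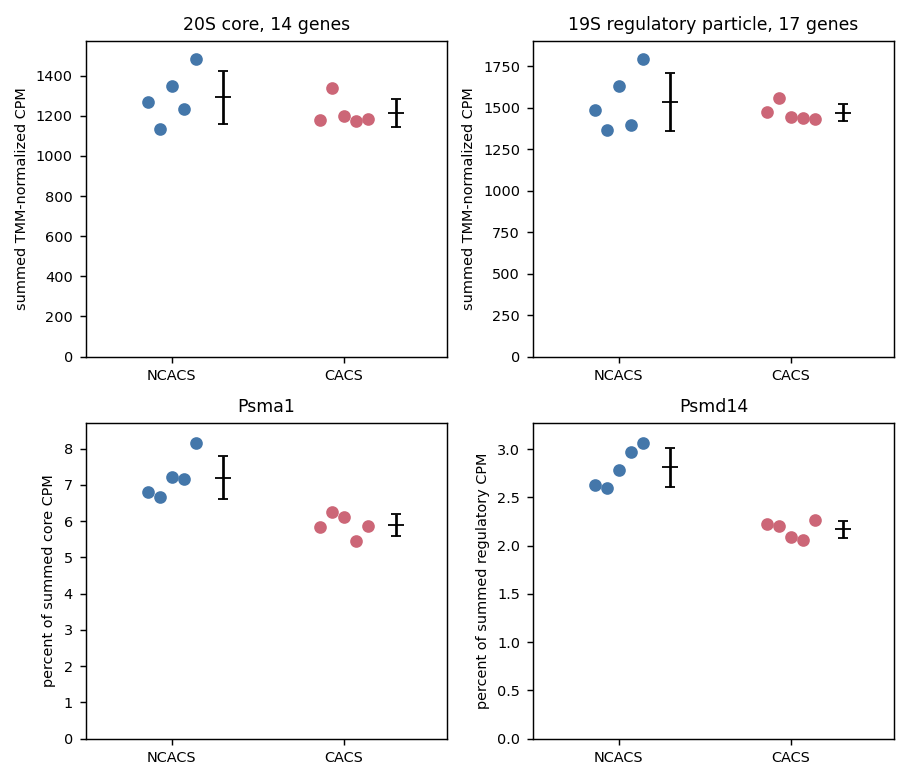
Summed TMM-normalized CPM of the core and regulatory particle genes per liver (upper panels) and the percent of the particle's sum taken by Psma1 and Psmd14 (lower panels), for 5 NCACS and 5 CACS livers with the mean ± SD beside them. The sums overlap between groups, with NCACS mouse 15 highest at 1482 and 1790 CPM, while the shares of Psma1 and Psmd14 do not overlap.

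Assembly chaperones showed no call in edgeR's test either, where 3.8% of all genes were called. The core chaperone genes Psmg1 to Psmg4, which guide ring assembly, had log2 fold changes from -0.21 (Psmg3) to 0.06 (Psmg1). Psmg3 had 8.21 ± 1.11 CPM in NCACS livers against 7.08 ± 0.678 CPM in CACS (SD, n = 5 each). Psmg2 and Psmg4 had log2 fold changes of -0.13 and -0.12. Of the chaperones of the base, Psmd5 was at -0.10, and Psmd10 had the most negative value, -0.23, with a fold interval of 0.645 to 1.12, and it was -0.05 without NCACS mouse 15.

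Psmd9, a chaperone of the base, had the highest log2 fold change of the 46 genes. Its levels were 42.0, 35.2, 33.3, 35.5 and 39.2 CPM in NCACS and 49.8, 42.8, 34.5, 41.5 and 53.3 CPM in CACS livers. CACS mice 16, 17 and 20 exceeded every NCACS liver, and CACS mice 18 and 19 lay inside the NCACS range. With edgeR, the log2 fold change was 0.26 ± 0.120 (SE), with an adjusted p of 0.234. Its exons share 1849 bases with the long noncoding gene Gm26745 on the opposite strand, and its introns overlap the abundant Hpd gene on that strand.

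The genes of the alternative activators lay on both sides of 0. Psme1 and Psme2, neighbours on chromosome 14, encode the interferon-inducible cap linked to antigen processing. Psme2 was 86.3, 82.9, 150, 76.7 and 109 CPM in NCACS and 76.8, 68.0, 79.6, 76.8 and 86.0 CPM in CACS livers. NCACS mice 13 and 15 were high and the other NCACS livers lay near the CACS range. The edgeR estimate was -0.38 on the log2 scale, with an adjusted p of 0.214, and -0.20 without NCACS mouse 13. Psme1 had a log2 fold change of -0.23, with NCACS mouse 13 at 125 CPM and NCACS mouse 15 at 107 CPM. The interferon response list, 19 genes summed, was also highest in these livers, at 6908 and 5903 CPM against 2753 to 4589 CPM elsewhere, and its part in the Psme1 and Psme2 values was not tested.

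Psme3, which encodes a nuclear activator, was 49.1, 56.2, 57.9, 58.1 and 62.1 CPM in NCACS and 58.9, 61.2, 68.1, 65.3 and 70.9 CPM in CACS livers. The groups overlapped through NCACS mouse 15, and edgeR gave a log2 value of 0.19 at an adjusted p of 0.218. Psme4, the gene of a large nuclear activator, had a value of 0.00 and Psmf1, the gene of an inhibitor, of -0.03, and the sign of each depended on the alternative. Psme2b, an intronless near copy of Psme2 with 8 to 45 counts, had -0.41 with a fold interval of 0.399 to 1.43. Reads of these copies may be split between them, so its value is uncertain, and it was 0.09 without NCACS mouse 13. Psmc3ip matched the symbol rule but encodes a partner of PSMC3 that acts in meiotic recombination. Its log2 fold change was 0.23, its highest liver exceeded the lowest by 3.39-fold, and its exons share 385 bases with Mlx on the opposite strand.

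Single livers were high or low for many proteasome genes at once. NCACS mouse 15 was the highest of the 10 livers for 26 of the 46 genes and the lowest for 0, where it was highest for 14.6% of all genes. NCACS mouse 13 was highest for 11 of the 46 genes and for 14.1% of all genes. NCACS mice 12 and 14 and CACS mouse 19 were each lowest for 8, against 4.42, 9.86 and 9.15% of all genes. Without NCACS mouse 15, the log2 fold changes of 29 of the 46 genes moved by over 1.5 times or changed sign, and 8 to 21 did so without any other 1 mouse (21 without NCACS mouse 13). The median deviation of the 46 genes from their 10-liver mean was 0.23 on the log2 scale in NCACS mouse 15, 0.13 in mouse 13 and -0.13 in mouse 12, while the CACS livers lay between -0.06 and 0.04. Over all genes tested the median deviation was between -0.02 and 0.02 in every liver. NCACS mice 15 and 13 had weight changes of -14 and -11%, the greatest losses in that group, and their albumin share of counts was 4.49 and 5.09%, against 8.05 to 10.5% in the other 8 livers. The part of these values in the result was not tested. The heatmap of deviations shows the column of NCACS mouse 15 as the most uniformly high.

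**Figure D4:**
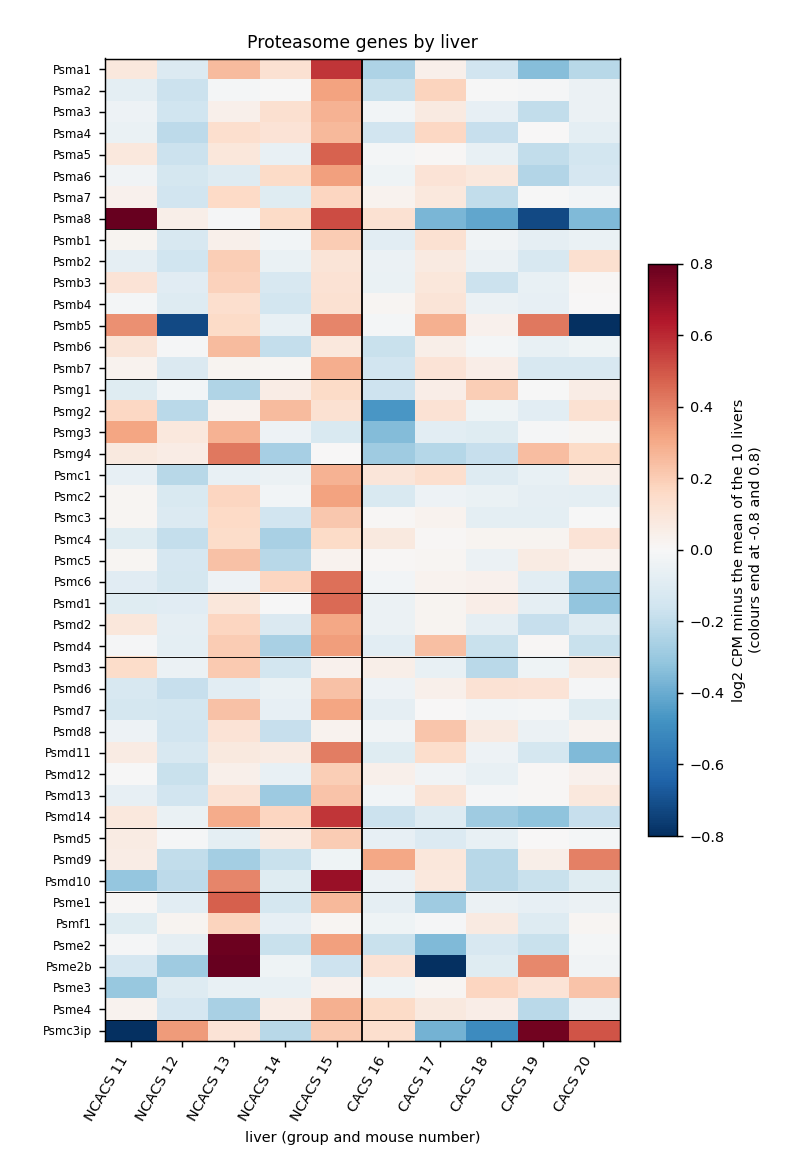
Log2 CPM of each of the 46 genes minus its mean over the 10 livers (colour, cut at -0.8 and 0.8), with genes in rows by role and livers in columns, NCACS left and CACS right of the line. NCACS mouse 15 is red for nearly all genes (median deviation 0.23), NCACS mouse 12 mostly blue (median -0.13), and Psmb5 is dark blue in NCACS mouse 12 and CACS mouse 20.

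Proteasome genes also varied less among cachectic livers. The SD of log2 CPM was larger in NCACS than in CACS livers for 42 of 46 genes (91.3%), where this held for 53.7% of all genes tested. The median SD was 0.183 in NCACS and 0.109 in CACS livers, against 0.258 and 0.243 for all genes. The exceptions were Psmb5, Psmc3ip, Psmd9 and Psmg2. Without NCACS mouse 15 the count was 34 of 46 (73.9%), against 46.8% of all genes. Psmc2 was the most even gene among CACS livers, with an SD of 0.032 beside 0.174 in NCACS livers. The 46 genes share these livers and are not independent of each other, and no test of the spread was made.

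**Figure D5:**
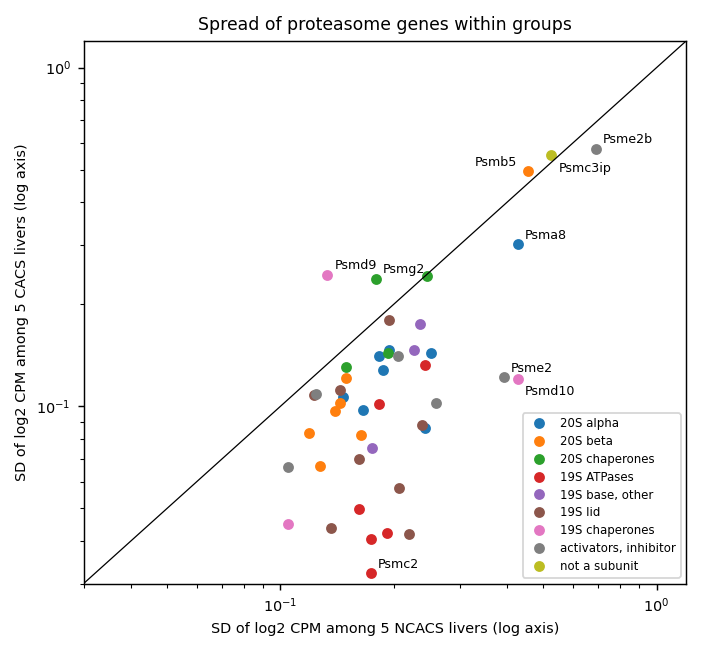
SD of log2 CPM among the 5 NCACS livers (horizontal log axis) and among the 5 CACS livers (vertical log axis) for each of the 46 genes, coloured by role, with a line of equal spread. The points of 42 genes lie below the line, and Psmb5, Psmc3ip, Psmd9 and Psmg2 lie above it.

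Levels between genes were compared per kilobase of exon. With the union of GENCODE M21 exons as length, Psma6 was highest in NCACS livers at 79.9 ± 11.1 CPM per kilobase, followed by Psmb6 at 68.2 ± 7.62 and Psmb4 at 65.2 ± 5.75 (SD, n = 5 each). The intervals of 1 SD around these means overlapped. With the length of the principal transcript, chosen after the data had been seen, Psmb6 was highest at 160.0 ± 17.9, then Psma7 at 132 ± 13.3 and Psmb4 at 108 ± 9.48 CPM per kilobase. The order of the abundant core subunits thus depends on the length used. The chaperones were lower on either scale, with Psmg1 at 14.1 ± 1.45 and Psmd5 at 4.55 ± 0.336 CPM per kilobase of exon union. Psma8 was lowest, at 0.248 ± 0.0881 CPM per kilobase.

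The inducible core subunits, which replace the catalytic ones in immunoproteasomes, were also not called by edgeR, which called 3.8% of all genes. DESeq2 called 1, Psmb9. This gene was at 21.01, 18.9, 53.9, 16.4 and 25.8 CPM in NCACS and 15.8, 10.4, 15.01, 13.6 and 13.3 CPM in CACS livers. The groups did not overlap, and NCACS mouse 13 was far above the rest. In edgeR's test the log2 fold change was -0.998, with an adjusted p of 0.0770 (0.0118 with DESeq2), and -0.59 without NCACS mouse 13. Psmb8 and Psmb10 had log2 fold changes of -0.41 and -0.47 with overlapping groups, and Psmb8 was 0.10 without NCACS mouse 13. Of the 19 interferon response genes, 0 were called by edgeR and 18 had negative values, with a median of -0.68, from Isg15 (-2.56) to Nlrc5 (0.01). Without NCACS mouse 13, Isg15 was at -1.34 and the median of the list at -0.35, with 17 of the 19 negative. In the fit to all 10 livers, 10 had an unadjusted p under 0.05, where 21.6% of all genes did. DESeq2 called 4, among them Isg15 at an adjusted p of 0.0106, and limma-voom 0, where DESeq2 called 9.8% and limma-voom 3.6% of all genes.

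Other proteasome-bound proteins had no call either. Of 17 genes for subunits, chaperones and shuttle factors with other symbols, 0 were called by edgeR, where 3.8% of all genes were. In its test, 3 of the 17 (17.6%) had an unadjusted p under 0.05, against 21.6% of all genes. The median log2 fold change of the 17 was -0.05. The values ran from -0.27 for Usp14, the deubiquitinase that docks on the base, to 0.30 for Ubqln4, a shuttle factor. Of 13 genes of the p97 segregase, which extracts ubiquitin-tagged proteins from membranes and complexes, 0 were called by edgeR. In its test, 3 of the 13 (23.1%) had an unadjusted p under 0.05, near the 21.6% of all genes. Neither DESeq2 nor limma-voom called any of these 2 lists. The p97 values ran from -0.24 for Vcp, the segregase itself, to 0.18 for its cofactor Ufd1.

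Among 15 regulators of proteasome genes, 1 was called by edgeR, 3 by DESeq2 and 2 by limma-voom, where these tools called 3.8, 9.8 and 3.6% of all genes. Foxo1, the forkhead factor restrained by insulin signalling, was 40.7, 39.5, 25.6, 39.1 and 36.9 CPM in NCACS and 58.3, 61.9, 52.5, 48.0 and 49.2 CPM in CACS livers. Every CACS liver exceeded every NCACS liver. This gave an edgeR log2 fold change of 0.57 ± 0.131 (SE) at an adjusted p of 0.0375. The call was lost with raw library totals or with scaling to the subunits (adjusted p of 0.0531 and 0.0617 in edgeR's tests) and when any 1 mouse other than NCACS mouse 13 was left out, where the adjusted p was 0.0576 to 0.0784.

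Nfe2l1, the gene of NRF1 and the lowest of this list, was 159, 146, 150, 132 and 161 CPM in NCACS and 131, 100.3, 121, 111 and 94.6 CPM in CACS livers. The groups did not overlap, although NCACS mouse 14 and CACS mouse 16 lay close. With edgeR, the log2 fold change was -0.42 ± 0.107 (SE), with an adjusted p of 0.0505. The adjusted p was 0.00542 with DESeq2, 0.0494 with limma-voom and from 0.00542 to 0.147 over the alternatives. In edgeR's test it was 0.0490 with RLE factors, 0.0472 with at least 10 counts in every liver and 0.0445 with upper-quartile factors. No fit that left out a mouse called Nfe2l1. Maff, a small MAF partner of such factors, had the highest value of the list at 1.09, at an adjusted edgeR p of 0.109, and DESeq2 called it at an adjusted p of 0.0264. Its adjusted p was 0.0264 to 0.189 over the alternatives.

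Among genes that supply or activate ubiquitin, Rps27a, which encodes ubiquitin fused to a ribosomal protein, was 162 ± 9.97 CPM in NCACS livers against 213 ± 24.3 CPM in CACS (SD, n = 5 each). The edgeR estimate was 0.40 ± 0.0992 (SE) on the log2 scale, with an adjusted p of 0.0494, with groups that did not overlap, and the call was lost without any 1 of the 10 mice (adjusted p from 0.0659 to 0.104 in edgeR's tests). It was also lost with no filter, raw library totals, a robust fit, upper-quartile factors or scaling to the subunits (0.0502 to 0.0862). Rps27a has near-identical processed copies, so its counts are uncertain. The activating enzymes Uba1 and Uba6 had log2 fold changes of -0.02 and -0.12, and the polyubiquitin gene Ubb of 0.00. Of 9 ubiquitin ligases linked to muscle atrophy, Trim63 was under the filter on low counts. Of the other 8, 0 were called by edgeR (3.8% of all genes) and 0 by DESeq2 (9.8% of all genes). In edgeR's test 2 of these 8 ligases (25.0%, against 21.6% of all genes) had an unadjusted p under 0.05. Their values ran from -0.66 for Fbxo21 to 0.58 for Fbxo31, both F-box proteins that select substrates for ubiquitin ligases. Fbxo21 was called by edgeR without CACS mouse 17, at a log2 fold change of -0.97 and an adjusted p of 0.0389.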

How the data were processed

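Liver RNA of 10 male KL mice, 5 NCACS and 5 CACS, was sequenced from stranded mRNA libraries. The authors aligned reads to GRCm38 (STAR 2.4.1d), and the deposited values are raw counts per Ensembl gene from HTSeq 0.6.1. Annotation release and strand setting are not given in the sources used here. Versions of the tools are from the submitters' processing notes.

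Symbols came from GENCODE M21 (GRCm38), which lacked 1081 of the 43629 identifiers. Groups, mouse numbers and weight changes came from the labels. The deposited counts were tested with edgeR 4.0.16 in R 4.3.3 (filterByExpr, TMM, quasi-likelihood test, Benjamini-Hochberg over all 14143 genes tested, threshold 0.05), and log2 CPM was computed with a prior count of 2. Livers within a group differed beyond sampling noise (chi-square per degree of freedom of at least 46.1 in 20 pairs). On simulated data with 200 genes changed 4-fold among 13980, edgeR recovered 182 with 7.14% of calls false, and DESeq2 1.42.0 recovered 188 with 16.4% false. Smaller changes were not simulated, so this gives no recovery rate for fold changes of the size seen in the proteasome genes.

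Members, lists and tests were chosen with earlier results of these data known. Per-liver values are given for the 6 genes with the smallest unadjusted p, since fewer than 6 passed the threshold, and for the 3 catalytic genes. The extremes of each role and list, genes past the threshold and genes that change direction or call under an alternative are named too. Psme2b was given its role after the lists were written, and any further gene named was picked with its values in view.

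The alternatives were DESeq2, limma-voom (limma 3.58.1), upper-quartile or RLE factors, unscaled library totals, no filter on low counts, a minimum of 10 counts in each liver, a robust fit, a threshold of 0.01 and leaving out each mouse. Scaling to the subunits, shares of a particle and principal transcript length were added after seeing the data. Genes with few counts, such as Psma8 and Psme2b, are limited by counting error, and the study's batch correction could not be repeated because the labels give no batch. All proteasome genes passed the filter. Some alleles and listed genes are not reported here.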

Additional observations from a re-analysis of the deposited data

Results flagged for a closer look

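Each of the 46 genes and the summed core and regulatory levels were examined in each group for a liver set apart from the rest. Of 96 groups examined, 4 had such a liver, where chance flags about 1 in 20. The measure is the gap to the nearest liver divided by the group's range of log2 CPM. In CACS mouse 17, Psmb1, a beta ring gene, was the highest of its group with a gap of 0.738 of the range. The summed core level of the same mouse was also the highest of its group, with a gap of 0.842. Psme1, which encodes an activator subunit, was the lowest of its group in that mouse, with a gap of 0.882. Psme2b, the near copy of Psme2 with few counts, was the highest of its group in NCACS mouse 13, with a gap of 0.852.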

How the results depend on the processing

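Settings were changed one at a time. The number of proteasome genes called was 0 in edgeR's test and 1 (Psmd14, lower) under DESeq2 and under upper-quartile factors, and it ranged from 0 to 1 with each mouse left out (1 without NCACS mouse 12). The number called higher was 0 throughout. All genes called numbered 538, and from 178 to 1386 under the alternatives (1386 under DESeq2, 222 scaled to the subunits). The median over the 46 genes ranged from -0.12 to -0.03 with each mouse left out. The core ratio of means ranged from 0.912 to 0.976 and the regulatory ratio from 0.932 to 0.999 in the same way. Some signs changed. Psmb4 (0.00) was -0.0075 under DESeq2, -0.0077 under RLE factors, -0.0019 with at least 10 counts in every liver, -0.0026 with no filter and -0.0073 under upper-quartile factors. Psme4 was -0.0033 under DESeq2, -0.0034 under RLE and -0.0032 under upper-quartile factors. Psmb2 and Psmd12 were 0.0053 and 0.0098 with raw library totals. Scaled to the subunits, Psmb5 was 0.044, Psma2 0.047, Psma7 0.027, Psmb1 0.021, Psmb2 0.062, Psmc3 0.017, Psmd12 0.071 and Psmf1 0.041. With each mouse left out, Psmb5 ranged from -0.19 to 0.12, Psma2 from -0.075 to 0.063, Psmb4 from -0.034 to 0.035, Psme2b from -0.56 to 0.091, Psmb1 from -0.086 to 0.00032, Psmb2 from -0.050 to 0.041, Psmc1 from -0.0083 to 0.13, Psmc5 from -0.027 to 0.089, Psmd12 from -0.047 to 0.050, Psmd13 from -0.0023 to 0.13, Psme4 from -0.055 to 0.085, Psmf1 from -0.051 to 0.017, Psmb8 from -0.59 to 0.10, Psmb10 from -0.63 to 0.0010, Uba6 from -0.21 to 0.011 and Nlrc5 from -0.061 to 0.067. The cause of these shifts was not tested. Per kilobase of principal transcript, levels in NCACS livers were 94.7 for Psma6, 160.0 for Psmb6 and 26.1 for Psma2. Relative to the particle, 6 subunits did not overlap between groups in place of 1. Psma8 and Psme2b were not refitted with at least 10 counts in every liver, since that filter removes them. Counts under 50 per liver limit these 2 genes. No paired analysis was possible because each mouse has its own number.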

Other observations

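Neighbours of Psmb5 on chromosome 14 were looked at because the level of Psmb5 was uneven. Among the 79 genes tested within 2.5 megabases on either side, Psmb5 included, 5 others had NCACS mouse 12 and CACS mouse 20 as their lowest livers, the pair set by Psmb5 itself. They were Ajuba, Cebpe, Pck2, Ppp1r3e and Sall2. Over all 14143 genes tested, 163 (1.15%) had these lowest livers. The window was chosen after the Psmb5 values had been seen, and no test was made.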
